A study of Mus musculus with 15 samples.

Results

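The 9 genes described here are the members of the HoxA and HoxB clusters Hoxa3, Hoxa5, Hoxa7, Hoxa9, Hoxa10, Hoxb2, Hoxb3, Hoxb4 and Hoxb5, chosen by symbol among the 45232 gene IDs of a count table of mouse LSK cells. LSK cells lack lineage markers and carry Sca-1 and c-Kit, and they include the stem cells of the marrow and their first descendants. The table covered 15 libraries in 5 groups of 3, all CD45.2+ LSK cells of strain C57BL/6. The WT group carried no mutation, and the study's text does not state whether its cells came from transplanted mice. If they did not, transplantation cannot be told apart from genotype. The vehicle, AG221, ruxolitinib and combined groups were cells of JAK2/IDH2-mutant donors, with Mx1-Cre-driven Jak2V617F and Idh2R140Q alleles, recovered from irradiated CD45.1 recipients that had been transplanted with a mixture of mutant and CD45.1 WT marrow. AG221 (enasidenib) blocks the mutant IDH2 enzyme, and ruxolitinib blocks JAK1 and JAK2. Per the labels, AG221 was dosed at 40 mg per kg and ruxolitinib at 60 mg per kg, each by gavage over 21 to 28 days, with the last dose about 1.5 hours before the mice were killed. The sources used here do not say in so many words whether a library is 1 mouse, and whether the WT mice were dosed is not given, so p-values measure the spread between these libraries.

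Hox genes encode homeodomain transcription factors that sit in 4 clusters, HoxA to HoxD, and are numbered by their place in the cluster. In blood they are used by stem and progenitor cells and are shut down as the cells mature, and the products of the 5′ HoxA genes act on DNA together with the TALE homeodomain proteins of the MEIS and PBX families. HOXA9 and MEIS1 are best known as drivers of leukemic self-renewal downstream of MLL-menin complexes, which keep the cluster open, while Polycomb complexes keep it silent. Mutant IDH2 makes 2-hydroxyglutarate, which inhibits TET2 and histone demethylases, and this places regulation of chromatin and of DNA methylation among the processes the alleles touch.

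By the GENCODE annotation of GRCm38, the 5 HoxA members lie on the minus strand of chromosome 6: Hoxa3 (ENSMUSG00000079560) at chr6:52169062-52213336, Hoxa5 (ENSMUSG00000038253) at chr6:52201754-52204587, Hoxa7 (ENSMUSG00000038236) at chr6:52214491-52221854, Hoxa9 (ENSMUSG00000038227) at chr6:52223100-52231089 and Hoxa10 (ENSMUSG00000000938) at chr6:52231197-52240854. The 4 HoxB members lie on the plus strand of chromosome 11: Hoxb5 (ENSMUSG00000038700) at chr11:96303336-96306121, Hoxb4 (ENSMUSG00000038692) at chr11:96318267-96321638, Hoxb3 (ENSMUSG00000048763) at chr11:96323326-96347930 and Hoxb2 (ENSMUSG00000075588) at chr11:96350525-96354012. All are protein-coding.

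The promoters of some of the genes on which the results turn are shown. The HoxA genes that moved together lie in the same cluster on chromosome 6, while Hoxb4 is on chromosome 11. The window of Hoxa7 is not printed. RefSeq promoters (GRCm38.p6) were found for 6 of the 9 members. Hoxb2, Hoxb3 and Hoxb5 had no entry. Each line gives the 250 bases before the RefSeq start, 5′ to 3′ on the gene's strand. CG dinucleotides, the sites of DNA methylation, are in capitals. The RefSeq starts of Hoxa9 and Hoxa3 used here lie inside the GENCODE spans given above. Their windows are therefore not upstream of the whole annotated gene. The windows are Hoxa9 at chr6:52227371-52227620 (minus strand), Hoxa5 at chr6:52204588-52204837 (minus), Hoxa3 at chr6:52213068-52213317 (minus) and Hoxb4 at chr11:96318017-96318266 (plus).
Hoxa9: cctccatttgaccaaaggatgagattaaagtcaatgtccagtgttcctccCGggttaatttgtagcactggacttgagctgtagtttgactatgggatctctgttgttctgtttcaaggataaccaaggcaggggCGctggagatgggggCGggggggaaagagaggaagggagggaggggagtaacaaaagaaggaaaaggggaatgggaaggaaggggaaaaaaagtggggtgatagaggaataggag
Hoxa5: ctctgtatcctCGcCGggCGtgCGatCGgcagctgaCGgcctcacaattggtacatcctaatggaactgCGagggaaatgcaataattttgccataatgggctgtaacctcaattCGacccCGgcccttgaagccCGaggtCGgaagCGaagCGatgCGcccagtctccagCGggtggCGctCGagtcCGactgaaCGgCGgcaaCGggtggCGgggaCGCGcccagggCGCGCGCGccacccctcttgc
Hoxa3: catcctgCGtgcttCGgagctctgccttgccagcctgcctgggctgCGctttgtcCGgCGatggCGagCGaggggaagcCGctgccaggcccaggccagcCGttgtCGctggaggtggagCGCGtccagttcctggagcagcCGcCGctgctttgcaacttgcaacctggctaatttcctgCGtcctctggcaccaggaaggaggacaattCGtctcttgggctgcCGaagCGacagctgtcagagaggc
Hoxb4: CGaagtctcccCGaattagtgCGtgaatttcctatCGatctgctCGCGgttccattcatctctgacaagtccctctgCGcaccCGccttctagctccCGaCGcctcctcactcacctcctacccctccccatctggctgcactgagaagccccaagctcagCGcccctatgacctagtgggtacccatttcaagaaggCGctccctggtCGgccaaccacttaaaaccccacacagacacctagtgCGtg
These windows held 3 CG dinucleotides for Hoxa9, 28 for Hoxa5, 18 for Hoxa3 and 14 for Hoxb4, against a median of 6 over 32851 promoters of the same length. A further search covered 4 motifs on both strands of the 7 windows of the members (Hoxa10 has a pair of starts). The STAT motif TTCNNNGAA, found in 7.02% of all promoters, the AP-1 motif TGANTCA (6.75%) and the HOX-PBX motif TGATTNAT (2.82%) had no match, and the MEIS motif TGACAG (15.9%) matched in the Hoxa3 window. A match is a run of letters and was not tested as a binding site.

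Total counts per library ran from 18836625 to 32174287, and no pair of replicates agreed within sampling noise. The LSK gate genes Kit and Ly6a (Sca-1) were present in every library, Kit at 740 to 1552 CPM (counts scaled to library size by TMM). Cd34, which is not part of that gate, was also present in every library. The WT libraries stood apart from the mutant ones by sex, with Xist at 455 to 511 CPM in WT and at most 19.5 CPM in the other groups, so that sex and genotype cannot be told apart. They also had more genes with a count, 29782 to 34487 against 21369 to 26329 in the mutant libraries. Their TMM factors were 1.13 to 1.17, against 0.916 to 1.02. With no filter beyond 1 count, the median log2 fold change of vehicle against WT was -1.01 over all genes. The part of this in low-count genes called lower in vehicle was not tested. Replicate names begin with B in WT and combined and with A in the other groups, and what the letter stands for was not given. The library letter cannot be told apart from genotype in vehicle against WT, nor from treatment in combined against vehicle or either single drug. In the AG221 group, replicates A8 and A10 stood apart from A9 in base composition. The median log2 deviation of the genes in the top quartile of GC content, minus that of the bottom quartile, was -0.69 in A8 and -0.43 in A10, against 0.15 in A9. Ruxolitinib replicate A16 was at -0.21, and the other 11 libraries were between -0.062 and 0.24.

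Hoxa9, Hoxa7 and Hoxa10 were the most abundant of the 9 genes in these cells, and the HoxB genes were low. Scaled by exon length, the WT level was 20.5 ± 0.302 CPM per kilobase for Hoxa9 (SD, n = 3), 10.01 ± 0.570 for Hoxa7, 9.41 ± 0.989 for Hoxa10, 2.07 ± 0.485 for Hoxa5 and 0.885 ± 0.0393 for Hoxa3. In the same libraries, Hoxb5 stood at 1.17 ± 0.226 CPM per kilobase, Hoxb4 at 0.823 ± 0.212, Hoxb2 at 0.219 ± 0.0590 and Hoxb3 at 0.0873 ± 0.0320. The order was thus Hoxa9 first and Hoxb3 last, and the neighbours Hoxa7 and Hoxa10, as well as Hoxa3 and Hoxb4, were not separated by their spread. Hoxb3 had 1 to 14 counts per library and did not pass the filter on low counts, which left 8 of the 9 members tested. Antisense and neighboring transcripts overlap 52.9% of the exon bases of Hoxb3, 27.3% of Hoxb2, 27.1% of Hoxa3 and 20.4% of Hoxa7, and the strand setting of the counting was not stated, so reads in those bases may be lost or shared.

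**Figure D1:**
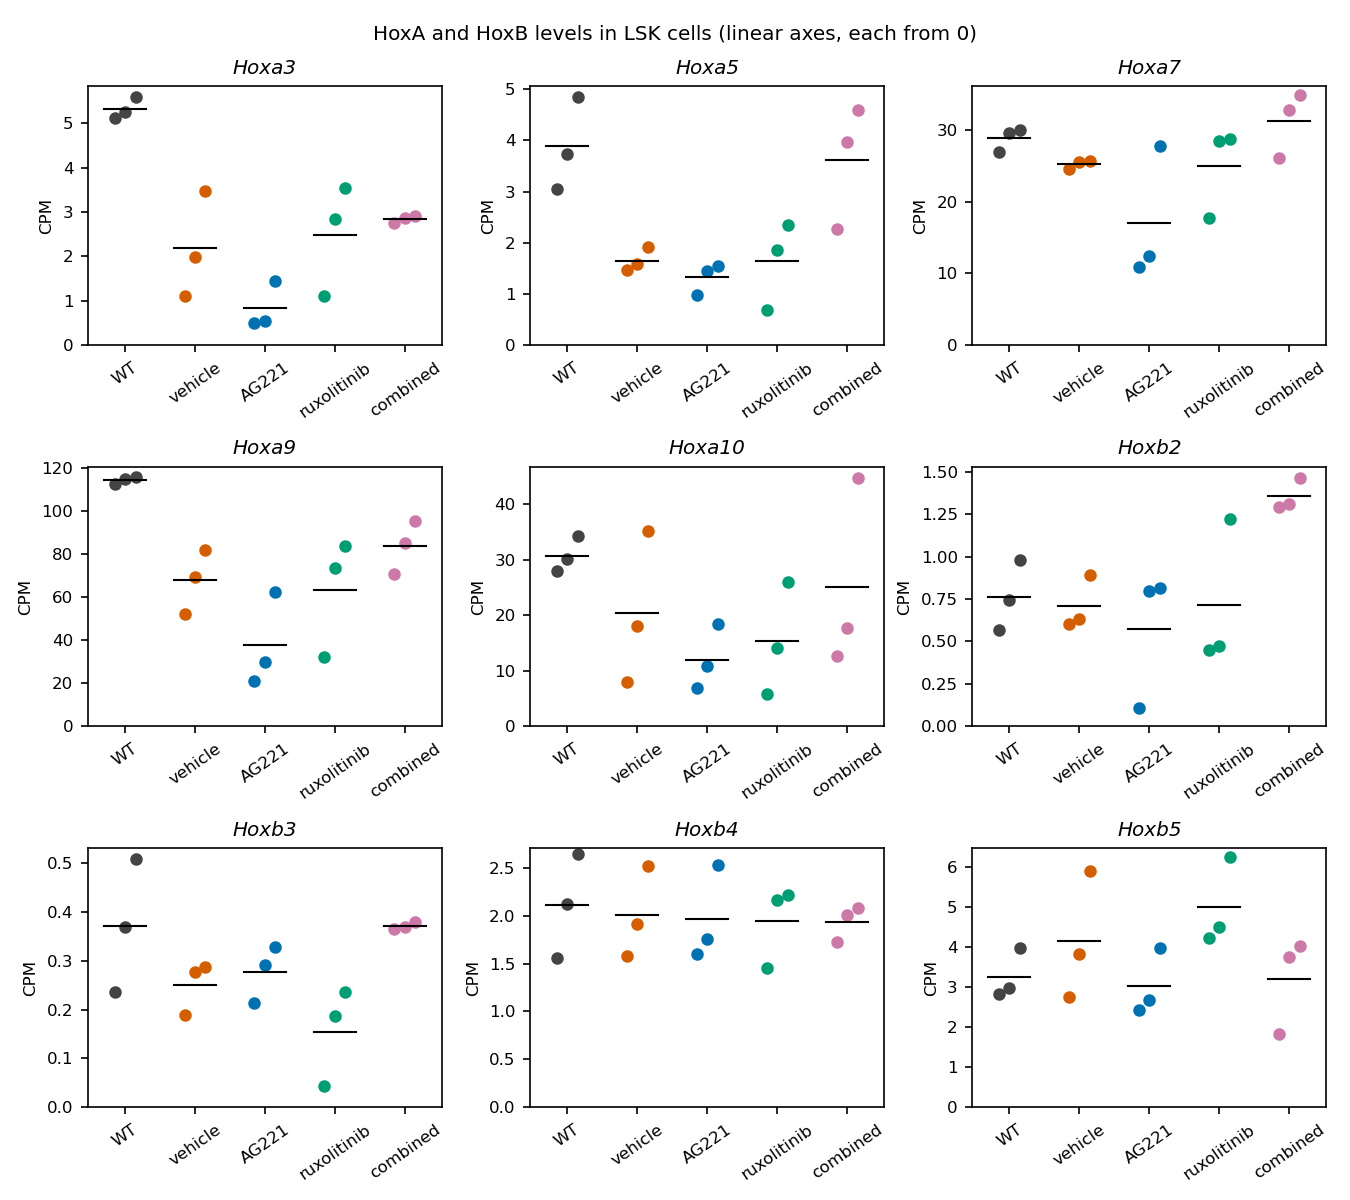
CPM of each of the 9 genes in the 15 libraries, with 3 points per group and a black line at the group mean (linear axes, each starting at 0). For Hoxa9, the WT points lie at 112 to 116 CPM, above all libraries of the other groups, whereas the points of Hoxb4 overlap in all groups.

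The comparison of vehicle with WT asked how the genes stood in mutant LSK cells without a drug. Hoxa5 was lower in vehicle and passed the test, and the other HoxA members had fold changes below 0 that did not. Hoxa5, a HoxA gene of the middle of the cluster with a role in myeloid and lung development, stood at 3.74, 4.85 and 3.05 CPM in the WT libraries and at 1.58, 1.91 and 1.46 CPM in vehicle. All 3 vehicle libraries were below all 3 WT libraries. Hoxa5 fell by 1.23 on the log2 scale (SE 0.399, adjusted p = 0.0322, quasi-likelihood test of edgeR, adjusted by Benjamini-Hochberg over 17834 genes). It was the 1 member called among 8 tested, where 33.3% of all tested genes were called in either direction and 17.9% were called lower. This call was lost without vehicle replicate A1 or A4 or without WT replicate B28 or B30, where the count of members called was 0. In those fits, 18.3%, 19.4%, 22.9% and 10.5% of all genes were called, in that order. The median over all genes in this comparison was -0.09, with 2747 genes called higher and 3190 lower. It was -0.18 under upper quartile normalization (1306 higher and 3586 lower) and 0.09 with an offset for GC content in each library (4146 higher and 2771 lower), and Hoxa5 was called under each, at -1.32 and -1.06.

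Hoxa9, the leukemia-associated factor of the 5′ side of the cluster, stood at 116, 112 and 115 CPM in WT and at 52.1, 81.8 and 69.4 CPM in vehicle. The groups did not overlap, and the log2 fold change was -0.75 (SE 0.371) with an adjusted p of 0.127 in edgeR, which did not pass the threshold. Hoxa3, a 3′ member known for pharyngeal and thymus patterning, stood at 5.59, 5.26 and 5.13 CPM in WT and at 1.99, 3.48 and 1.11 CPM in vehicle. Its log2 fold change of -1.27 (SE 0.473, edgeR adjusted p = 0.0525) lay just outside the threshold, and it was called under 5 of 8 alternatives that kept all libraries of the groups compared, where its adjusted p ran from 0.0309 to 0.0525. Hoxa7, another MLL target, differed little, with 29.97, 26.9 and 29.5 CPM in WT against 25.5, 25.6 and 24.5 CPM in vehicle (log2 fold change -0.19, SE 0.297). Hoxa10, a regulator of myeloid progenitor growth, ranged from 7.90 to 35.2 CPM in vehicle and overlapped the 27.9 to 34.3 CPM of WT. The groups were without overlap, lower in vehicle, for 4 of the 8 tested members, all HoxA, against 31.3% of all genes.

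No HoxB member was called in this comparison, and the libraries of both groups overlapped for all 3 that were tested. Hoxb4, known for expanding stem cells when overexpressed, stood at 1.56, 2.12 and 2.65 CPM in WT and at 1.92, 2.52 and 1.58 CPM in vehicle. The groups overlapped, and the log2 fold change was -0.07 with a 95% interval from -0.70 to 0.56. For Hoxb5, a marker of long-term stem cells, the fold change was 0.35 with an interval from -0.40 to 1.10. Hoxb2 was at -0.10 with an interval from -1.30 to 1.10, on 16 to 28 counts per library in these groups. The intervals of Hoxb2 and Hoxb5 reach past 1 on the log2 scale.

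Under AG221 alone, Hoxa9, Hoxa3 and Hoxa7 were low in a pair of libraries, A8 and A10, and not in A9. Hoxa9 stood at 21.2 CPM in A8, 62.2 CPM in A9 and 29.9 CPM in A10, against 52.1 to 81.8 CPM in vehicle. Hoxa3 stood at 0.556, 1.45 and 0.509 CPM in the same order, against 1.11 to 3.48 CPM in vehicle. Hoxa7 stood at 10.9, 27.8 and 12.4 CPM, against 24.5 to 25.6 CPM in vehicle. Hoxa10 stood at 6.80, 10.8 and 18.5 CPM, within or just below the 7.90 to 35.2 CPM of vehicle. For Hoxa9, Hoxa3 and Hoxa7, A8 and A10 lay below all vehicle libraries, and A9 lay within or above their range. None of the 8 members was called in AG221 against vehicle, where 0.987% of all genes were (edgeR). At an unadjusted p under 0.05 there were 2 members, Hoxa3 at -1.40 and Hoxa9 at -0.84 on the log2 scale, and DESeq2 called 1, Hoxa3, where it called 15.4% of all genes. Without A9, 3 members were called lower: Hoxa3 at -2.05 (adjusted p = 0.0132), Hoxa7 at -1.12 (0.00269) and Hoxa9 at -1.42 (0.00890), with edgeR on the remaining libraries. In that fit 24.4% of all genes were called in either direction, against 0.987% with A9, and the fits without A8 or without A10 called 0 genes. Over the 6 fits that each left out 1 library of these groups, the adjusted p ran from 0.0132 to 0.392 for Hoxa3, from 0.00269 to 0.636 for Hoxa7 and from 0.00890 to 0.507 for Hoxa9. A8 and A10 were also the libraries with the lowest balance of GC-rich to GC-poor genes. With an offset for GC content in each library, the change of Hoxa9 was -0.81 and that of Hoxa3 was -1.36, and neither was called. Among HoxB genes, Hoxb4 stood at 1.75, 2.53 and 1.60 CPM in A8, A9 and A10, Hoxb5 at 2.69, 3.99 and 2.44 CPM and Hoxb2 at 0.812, 0.797 and 0.109 CPM, the last on 3 counts.

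Ruxolitinib alone left the members near vehicle on average, with a wide spread. Hoxa9 stood at 73.6, 32.004 and 83.9 CPM, and replicate A16 was the low library, as it was for Hoxa3 (1.11 CPM), Hoxa5 (0.684 CPM), Hoxa7 (17.8 CPM) and Hoxa10 (5.77 CPM). A16 also had the highest sum of 8 erythroid markers, 3930 CPM against 1061 CPM in A14 and 1024 CPM in A17, and the part of this in its HoxA levels was not tested. None of the 8 members was called (edgeR and DESeq2), none had an unadjusted p under 0.05, and 0.0168% of all genes were called. The 95% interval for Hoxa9 against vehicle ran from -0.90 to 0.69 on the log2 scale, and that for Hoxa5 from -0.89 to 0.85.

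**Figure D2:**
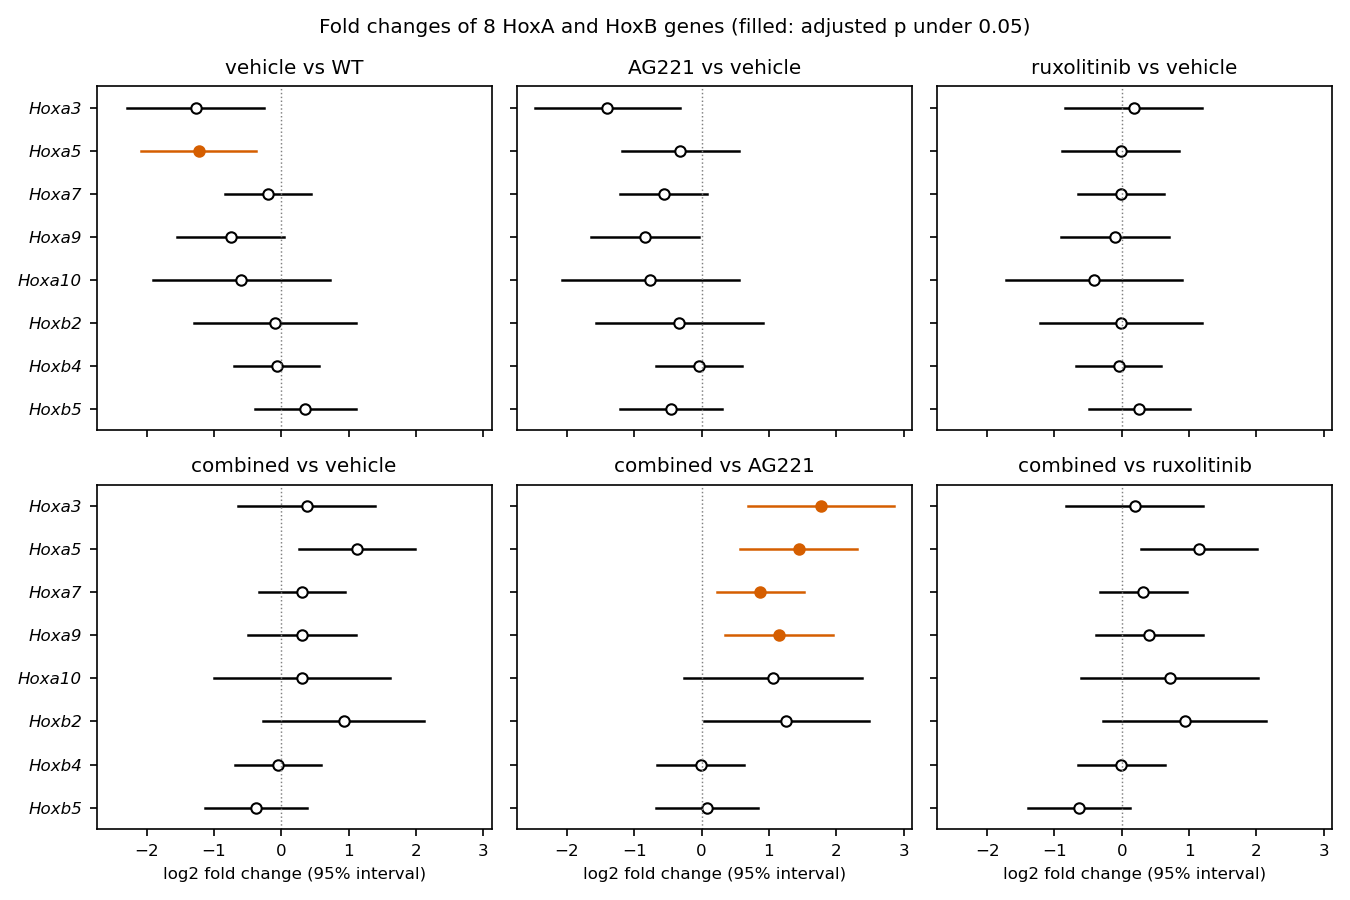
Log2 fold change (x axis) with its 95% interval for the 8 tested genes (y axis) in 6 comparisons, with filled orange points where the adjusted p was under 0.05. Hoxa5 is filled in vehicle against WT, and Hoxa3, Hoxa5, Hoxa7 and Hoxa9 are filled in combined against AG221. The intervals of Hoxb4 span 0 in every panel.

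Under combined treatment, HoxA levels stood above those under AG221 alone. Hoxa9 stood at 95.5, 70.9 and 85.2 CPM in combined, above all AG221 libraries, of which A9 was highest at 62.2 CPM. Against AG221 it rose by 1.15 on the log2 scale (SE 0.375, edgeR adjusted p = 0.0315). Hoxa3 stood at 2.92, 2.76 and 2.87 CPM, all above the AG221 libraries, and rose by 1.77 (SE 0.503, edgeR adjusted p = 0.0173). Hoxa5 stood at 3.97, 4.60 and 2.27 CPM against 0.983, 1.55 and 1.45 CPM in AG221, and rose by 1.44 (SE 0.407, edgeR adjusted p = 0.0169). The combined and AG221 libraries did not overlap for these 3 genes or for Hoxb2, against 24.3% of all genes without overlap and higher. Hoxa7 stood at 34.9, 26.1 and 32.7 CPM and rose by 0.87 (SE 0.3002, edgeR adjusted p = 0.0390), but AG221 replicate A9 at 27.8 CPM lay above the lowest combined library.

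These 4 of the 8 tested members were called higher, against 18.9% of all genes called higher and 33.2% called in either direction. All 4 calls were HoxA. Hoxa10 at 1.06 (adjusted p = 0.201 in edgeR) was the HoxA member not called, with combined libraries at 17.8, 44.8 and 12.7 CPM. Hoxb4 at -0.01 and Hoxb5 at 0.08 were not called, and Hoxb2 at 1.26 (edgeR adjusted p = 0.105) was not called although its 3 combined libraries, at 1.46, 1.31 and 1.30 CPM, lay above all AG221 libraries. The calls depended on single libraries. They fell to 0 of 8 without A8 or without A10, where 15.7% and 16.9% of all genes were called in either direction. They fell to 1 without combined replicate B24 (17.3% of all genes) and to 2 without B25 (21.3%) or B26 (25.1%). All 4 remained without A9 (42.6%), where the rise of Hoxa9 was 1.72. With the GC offset the same 4 genes were called, and Hoxa9 was at 1.03 (adjusted p = 0.0257 in edgeR). With the libraries of these 2 groups alone in the fit, 2 of 8 were called, Hoxa3 and Hoxa5, where 24.9% of all genes were called. The median over all genes in this comparison was 0.11, with 3371 genes called higher and 2546 lower. It was -0.18 under upper quartile normalization (2671 higher and 4359 lower) and -0.09 with the GC offset (2862 higher and 3661 lower). Over the 8 alternatives that kept all libraries of the groups compared, Hoxa3 and Hoxa5 were called in all 8, Hoxa9 in 7 (adjusted p from 0.0120 to 0.0602) and Hoxa7 in 6 (from 0.0202 to 0.119).

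Against vehicle, combined treatment called none of the 8 members, where 12.5% of all genes were called (edgeR). Hoxa5 was at 1.13 (unadjusted p = 0.0140 and adjusted p = 0.0853 in edgeR) and was the 1 member called by DESeq2, which called 14.7% of all genes. Its 3 combined libraries were above all vehicle libraries, as were those of Hoxa7 and Hoxb2, which makes 3 of 8 members without overlap against 19.5% of all genes. Against ruxolitinib, 0 of 8 were called against 12.4% of all genes, Hoxa5 was the 1 member with an unadjusted p under 0.05, and DESeq2 called 1, again Hoxa5 (log2 fold change 1.14, edgeR adjusted p = 0.0838), where it called 2973 of 17473 genes. Against WT, 0 of 8 were called by edgeR and by DESeq2, none had an unadjusted p under 0.05, and 3.25% of all genes were called. Hoxa9 in combined remained below WT in all 3 libraries (log2 fold change -0.45, 95% interval -1.24 to 0.35). Hoxa3 did as well (-0.90, interval -1.91 to 0.11), against 19.3% of all genes lower without overlap. With the libraries of these 2 groups alone in the fit, both were called lower, where 10.6% of all genes were called. Hoxb2 went the other way, with all combined libraries above WT (0.83, interval -0.36 to 2.01), on 28 to 38 counts in combined. Against ruxolitinib, Hoxb2 was higher without overlap (0.93) and Hoxb5 lower without overlap (-0.64), and neither was called. These comparisons share libraries, so they are not independent of each other.

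A last contrast, the combined change less the changes under each drug alone, asks whether the drugs together moved a gene by more or less than their separate changes add up to. It was positive for all 5 HoxA members: 1.59 for Hoxa3 (SE 0.687), 1.46 for Hoxa5 (0.571), 0.89 for Hoxa7 (0.422), 1.25 for Hoxa9 (0.526) and 1.47 for Hoxa10 (0.866), on the log2 scale. None of the 8 members was called by edgeR or by DESeq2, 3 had an unadjusted p under 0.05, and 8.42% of all genes were called by edgeR and 22.9% by DESeq2. Without AG221 replicate A9, 3 members were called: Hoxa3 at 2.24, Hoxa7 at 1.44 and Hoxa9 at 1.82 (edgeR adjusted p = 0.0214, 0.00324 and 0.00821), and 31.8% of all genes were called in that fit. Among the HoxB members the departure was 0.03 for Hoxb4 (SE 0.420), -0.18 for Hoxb5 (0.496) and 1.26 for Hoxb2 (0.803).

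**Figure D3:**
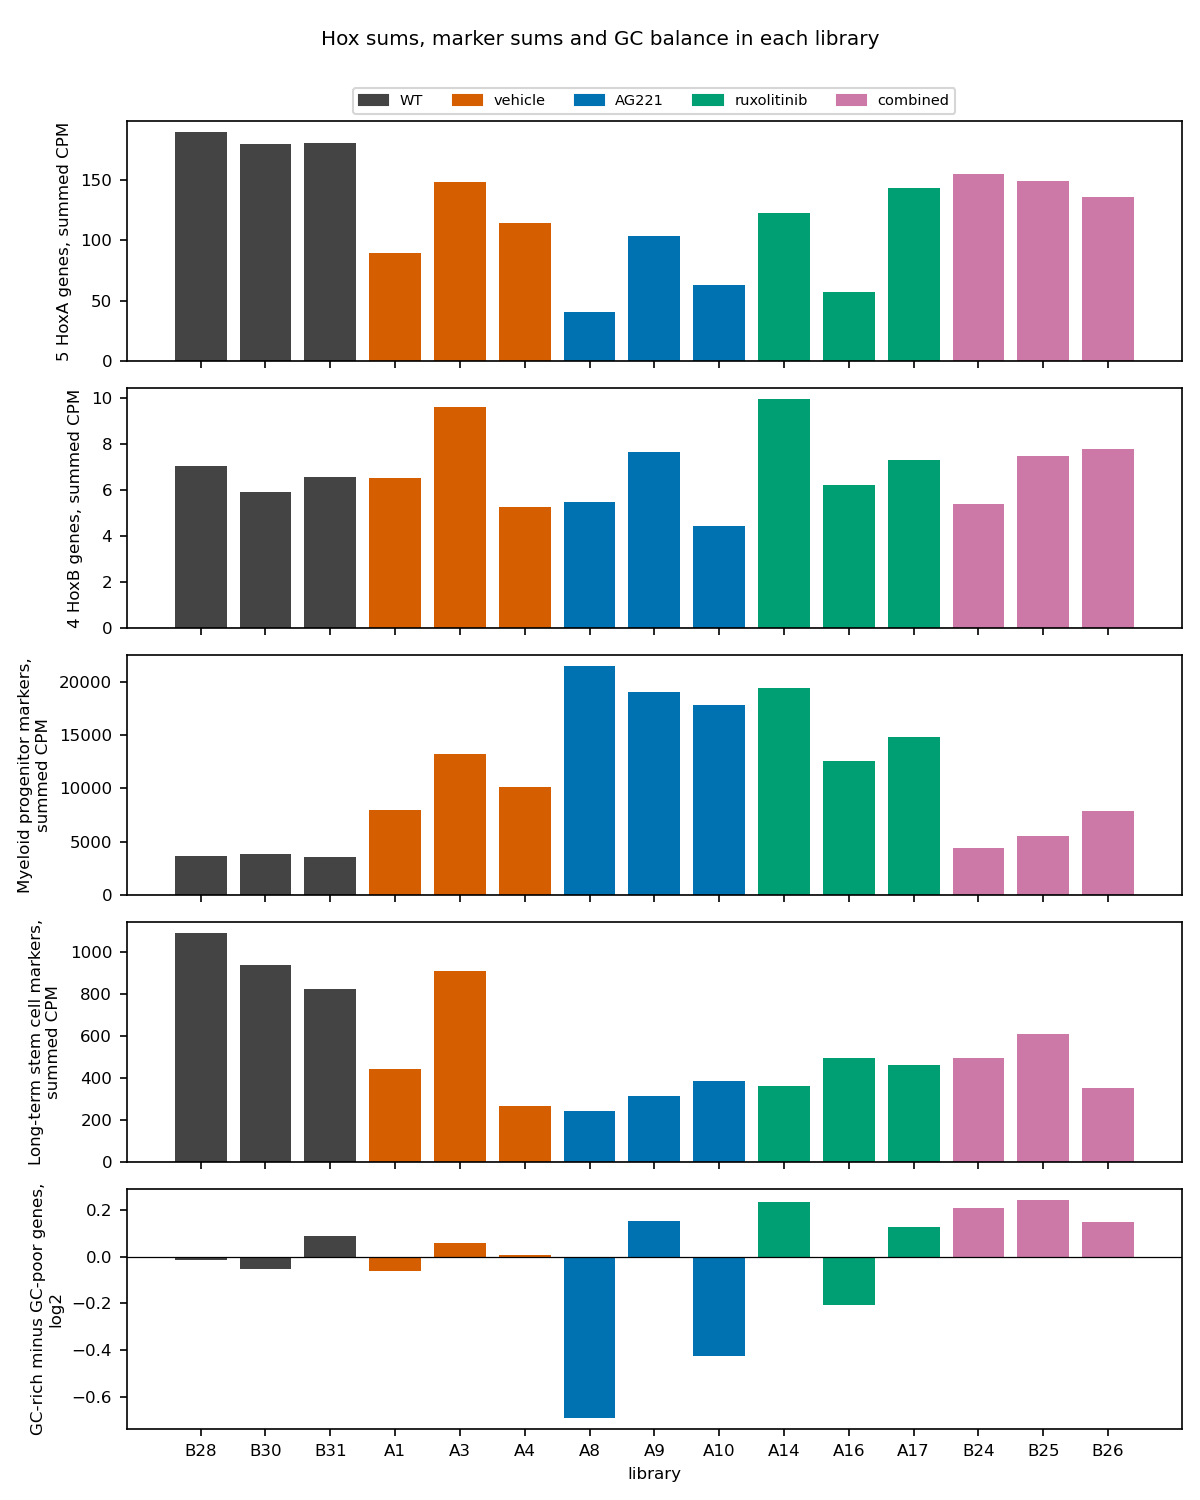
Bars give, for each of the 15 libraries on the x axis, the summed CPM of the 5 HoxA genes, the 4 HoxB genes, 8 myeloid progenitor markers and 10 long-term stem cell markers, and the log2 difference between GC-rich and GC-poor genes; colors mark the groups. HoxA sums are lowest in A8, A16 and A10, the same libraries that have the lowest GC balance.

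Summed over the 5 genes, HoxA CPM was 189, 180 and 180 in WT and 89.1, 148 and 115 in vehicle. It was 40.5, 104 and 62.7 in AG221 (A8, A9, A10), 122, 57.3 and 143 in ruxolitinib and 155, 149 and 136 in combined. The combined sums lay below all WT sums and above all AG221 sums, and overlapped those of vehicle and ruxolitinib. The HoxB sum ran from 4.44 to 9.94 CPM over the 15 libraries, and its groups overlapped throughout. The 3 libraries with the lowest HoxA sums, A8, A16 and A10, also had the lowest balance of GC-rich to GC-poor genes, and the part of base composition beyond the fits with GC offsets was not tested. In bulk cells, fewer expressing cells and less RNA per cell cannot be told apart.

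Markers of other cells of the marrow differed between the same groups. The shares of all genes called in either direction were 33.3% in vehicle against WT and 33.2% in combined against AG221. All 8 myeloid progenitor markers, such as Mpo and Elane of the granule, were called higher in vehicle than in WT (list median 1.54 against -0.09 over all genes), and all 8 were called lower in combined than in AG221 (median -1.61 against 0.11). Their summed level was 3522 to 3869 CPM in WT, 8022 to 13258 in vehicle, 17787 to 21441 in AG221, 12600 to 19450 in ruxolitinib and 4454 to 7922 in combined. Of 10 long-term stem cell markers, 3 were called lower in vehicle than in WT (Procr, Fgd5 and Hlf) and 1 higher (Slamf1), and in combined against AG221 Hlf was the 1 called, higher. Their sum was 824 to 1086 CPM in WT, 265 to 907 CPM in vehicle, 245 to 387 CPM in AG221, 361 to 496 CPM in ruxolitinib and 351 to 610 CPM in combined. Of 6 plasma cell markers, 5 were called lower in vehicle than in WT, and 12 of 14 immediate early genes were called higher. Leaving the immediate early genes out of the fit moved no count of members called. That step keeps the Hox counts as they are, so it cannot show a part of the immediate early response. The part of these lists in the HoxA differences was not tested. Within AG221 the myeloid progenitor sum of A9, 18997 CPM, lay between those of A8 and A10. Other sums set A9 apart from A8 and A10: plasma cell markers were at 116 CPM against 39.3 and 34.9 CPM, monocyte and dendritic cell markers at 1002 CPM against 1872 and 1318 CPM, erythroid markers at 1305 CPM against 1719 and 1947 CPM, T and NK cell markers at 602 CPM against 763 and 684 CPM, and B cell markers at 40.6 CPM against 58.7 and 58.3 CPM. Their part in the HoxA split within AG221 was not tested.

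The other genes of the Hox clusters were low or absent. As a background, 17.9% of all genes were called lower in vehicle than in WT and 18.9% higher in combined than in AG221. Of 6 further HoxA genes, 3 were tested (Hoxa2, Hoxa4 and Hoxa6), and Hoxa2 was called lower in vehicle than in WT (-1.53, edgeR adjusted p = 0.0362) while Hoxa6 was called higher in combined than in AG221 (1.42, edgeR adjusted p = 0.0290). Of 6 further HoxB genes, Hoxb6 was tested and was not called. Of 9 HoxC genes, Hoxc6 was tested and not called, and none of the 9 HoxD genes passed the filter. Among 4 tested noncoding transcripts of the clusters, Hoxaas2, an antisense transcript that overlaps Hoxa3, fell by 2.83 in vehicle against WT (edgeR adjusted p = 0.0258) and rose by 3.21 in combined against AG221 (edgeR adjusted p = 0.0184). It had 35 to 45 counts in WT, 1 to 13 in vehicle, 1 to 5 in AG221 and 20 to 45 in combined. It shares 503 exon bases with Hoxa3, which are 14.97% of its own exon bases and 8.36% of those of Hoxa3. Without strand, reads in those shared bases cannot be assigned to 1 gene of the pair.

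Cofactors of the Hox proteins were examined in the same comparisons. Of all genes, 33.3% were called in vehicle against WT and 33.2% in combined against AG221. Meis1, the partner of HOXA9, was at 406 to 503 CPM in WT and 265 to 492 CPM in vehicle, and its log2 fold change was -0.12 (SE 0.228, edgeR adjusted p = 0.705). Of 8 tested TALE cofactors, Meis2 and Meis3 were called lower in vehicle than in WT (-5.33 and -4.00), on 0 to 14 counts per vehicle library against 51 to 157 in WT. In combined against AG221 the 1 call was Pbx4, which rose by 1.52 (edgeR adjusted p = 0.00476). Pbx4 stood at 8.12, 22.3 and 10.04 CPM in A8, A9 and A10, and at 37.5 to 39.6 CPM in combined.

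Among 21 Trithorax and MLL complex genes, which keep Hox loci active, 4 were called lower in vehicle than in WT (Ash1l, Kdm6a, Kmt2a and Psip1). Dpy30 was the 1 called higher. Of all genes, 17.9% were called lower and 33.3% in either direction. Kmt2a, which encodes MLL1, fell by 0.45 (SE 0.143, edgeR adjusted p = 0.0290), and rose by 0.54 in combined against vehicle (edgeR adjusted p = 0.0250). Kdm6a lies on the X chromosome, and sex and genotype cannot be told apart in that comparison. In AG221 against vehicle, where 0.987% of all genes were called, Kdm6a was the 1 called of this list, at -0.87. In combined against AG221, 9 were higher and 2 lower, with a list median of 0.45. There, 18.9% of all genes were called higher and 33.2% in either direction. Men1, which encodes menin and was named after its values were seen, stood at 42.4 and 54.996 CPM in A8 and A10 and at 112 CPM in A9, and in the other 4 groups at 98.3 to 142 CPM. Its A8 and A10 values lay below A9, as those of Hoxa9 did, and many genes split in this way. Without A9, 24.4% of all genes were called in AG221 against vehicle, against 0.987% with it. The sum of the 21 genes was 1381 CPM in A8 and in A10 and 1879 CPM in A9. A link between Men1 and Hoxa9 was not tested.

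Among 22 Polycomb genes, 1 was higher and 3 were lower in vehicle than in WT, with Bmi1 of PRC1 at -0.94. Of all genes, 33.3% were called in that comparison. In combined against AG221, 10 were higher, among them Bmi1 at 1.23 and Ezh2 of PRC2 at 1.07, and 1 was lower. Of all genes, 18.9% were called higher there. A list of 10 genes held Gata2 and the Cdx and retinoid genes, which act upstream of Hox clusters, and 7 of the 10 were tested. Cdx1, Cdx2 and Cdx4 had at most 3 counts in every mutant library. Cyp26b1, Rarb and Rxra were called lower in vehicle than in WT, and Cyp26b1 had at most 3 counts in every combined library. Gata2, Rxra and Rxrb were called higher in combined than in AG221. The shares of all genes called in those directions were 17.9% and 18.9%, in that order.

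Of 14 genes taken as targets of HOXA9 and MEIS1, Cdk6 (0.80) and Igf1r (0.57) were called higher in vehicle than in WT. Lmo2 (-1.54), Sox4 (-2.63) and Flt3 (-1.99) were called lower. Of all genes, 33.3% were called in that comparison. In combined against AG221, 5 were higher and none was lower by edgeR: Lmo2 at 2.33, Sox4 at 4.43, Bcl2 at 1.37, Myb at 1.24 and Flt3 at 1.98. The list median there was 0.19, near the 0.11 of all genes, of which 18.9% were called higher. Flt3, the cytokine receptor of early multipotent progenitors, stood at 46.2, 173 and 63.4 CPM in A8, A9 and A10, with A9 again high, and at 575, 131 and 405 CPM in combined.

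The genes with profiles most like the mean HoxA profile over the 15 libraries, by the mean absolute difference of centred log2 CPM, were Ficd (0.146), Ppfibp1 (0.148), Slc39a13 (0.156), Ptpn18 (0.159) and Acap2 (0.160). The median over the 9720 eligible genes was 0.670. For the HoxB profile they were Zfp106 (0.167), B4galt4 (0.168), Jkamp (0.185), Arid2 (0.186) and Uggt1 (0.187), with a median of 0.486 over 13526 genes. These points share their libraries and depth, and the distances are descriptions.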

How the data were processed

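RNA of CD45.2+ LSK cells was amplified with SMARTer chemistry and sequenced as paired ends. The authors deposited raw counts per Ensembl gene, made with STAR 2.5.1a on mm10. Their DESeq2 1.6.3 normalized table was not used. The Ensembl release and strand setting are not given in the sources used here. Symbols were matched for 44585 of 45232 gene IDs from a GENCODE annotation (GRCm38), which also gave exon length and GC content.

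Counts were TMM-normalized and fitted with edgeR 4.0.16 (R 4.3.3, quasi-likelihood test, 5 groups, no covariate). The 17834 genes that passed filterByExpr were tested, and an adjusted p under 0.05 was called. Log2 CPM used a prior count of 2. Precision is limited by depth and by 3 libraries per group. The script was tested on simulated data. Alternatives were DESeq2 1.42.0, normalization by RLE or by the upper quartile, a filter of 1 count in all or of 10 counts in each library, a fit of the compared groups alone, GC offsets, removal of immediate early genes, a prior count of 0.5, unshared exon length and each library left out.

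All members are named. From the other lists, a gene was named if it was among the 5 smallest p-values of the comparison described, or was a measured TALE or other Hox gene. Members and lists were chosen with earlier results of these data known.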

Additional observations from a re-analysis of the deposited data

How the results depend on the processing

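No paired analysis was possible because no replicate number is shared between groups. Of the members' counts called, vehicle against WT moved from 1 to 2 under RLE, upper quartile normalization, a minimum of 10 counts in every library and DESeq2. It moved to 3 with the compared groups alone. Of all genes, 32.9%, 27.4%, 26.8%, 30.7% and 38.6% were called in those fits, in that order. With the compared groups alone, combined against WT moved from 0 to 2 (Hoxa3 and Hoxa9, lower) and combined against AG221 from 4 to 2. In those fits 10.6% and 24.9% of all genes were called, in that order. DESeq2 moved AG221 against vehicle, combined against vehicle and combined against ruxolitinib from 0 to 1 each, where it called 15.4%, 14.7% and 17% of all genes. With unshared exon length, mean levels over all 15 libraries moved from 0.456 to 0.625 CPM per kilobase for Hoxa3, from 8.85 to 11.1 for Hoxa7, from 0.236 to 0.325 for Hoxb2 and from 0.0671 to 0.143 for Hoxb3. With each library left out in turn, the counts called ran from 0 to 2 in vehicle against WT and 0 to 3 in AG221 against vehicle. They ran from 0 to 4 in combined against AG221 and 0 to 3 for the departure from the sum. The shares of all genes called ran from 10.5% to 30.9%, 0% to 24.4%, 15.7% to 42.6% and 0.23% to 31.8%, in that order. The cause of these moves was not tested, and leaving a library out changes the number of libraries and which libraries remain together. Of the other values of single genes under alternatives that keep all libraries, 471 kept direction and side of the threshold, 11 passed it newly and 3 lost it.

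Signs changed for 24 fold changes when a library was left out, none of them called with all libraries. In vehicle against WT, the ranges were -0.28 to 0.13 for Hoxb2, -0.25 to 0.14 for Hoxb4. In combined against vehicle, the ranges were -0.43 to 0.95 for Hoxa10, -0.20 to 0.15 for Hoxb4. In AG221 against vehicle, the ranges were -0.27 to 0.16 for Hoxb4, -0.67 to 0.21 for Hoxb2. In ruxolitinib against vehicle, the ranges were -0.37 to 0.35 for Hoxa5, -0.37 to 0.22 for Hoxa9, -1.05 to 0.24 for Hoxa10, -0.19 to 0.15 for Hoxb4, -0.63 to 0.24 for Hoxb2, -0.15 to 0.68 for Hoxa3, -0.13 to 0.18 for Hoxa7. In the departure from the sum of both drugs, the ranges were -0.19 to 0.26 for Hoxb4, -0.51 to 0.11 for Hoxb5. In combined against AG221, the ranges were -0.10 to 0.37 for Hoxb5, -0.19 to 0.21 for Hoxb4. In combined against ruxolitinib, the ranges were -0.21 to 0.10 for Hoxb4, -0.19 to 0.52 for Hoxa3, -0.0116 to 1.32 for Hoxa10. In combined against WT, the ranges were -0.20 to 0.27 for Hoxb5, -0.30 to 0.16 for Hoxa5, -0.999 to 0.0449 for Hoxa10, -0.29 to 0.088 for Hoxb4. Under RLE normalization, signs changed for Hoxb4 in AG221 against vehicle (0.00955), Hoxa7 in ruxolitinib against vehicle (0.00182), Hoxb2 in ruxolitinib against vehicle (0.0144), Hoxb4 in the departure from the sum of both drugs (-0.0347). Under upper quartile normalization, signs changed for Hoxb4 in AG221 against vehicle (0.13), Hoxb2 in ruxolitinib against vehicle (0.00159), Hoxa7 in combined against WT (-0.0815), Hoxb5 in combined against AG221 (-0.20), Hoxb4 in the departure from the sum of both drugs (-0.25). Under a minimum of 10 counts in every library, signs changed for Hoxa7 in combined against WT (-0.00458), Hoxb4 in the departure from the sum of both drugs (-0.00305). Under GC offsets, signs changed for Hoxb4 in vehicle against WT (0.0639), Hoxb2 in vehicle against WT (0.0292), Hoxb4 in AG221 against vehicle (0.10), Hoxb5 in combined against AG221 (-0.10), Hoxb4 in the departure from the sum of both drugs (-0.18). Under DESeq2, signs changed for Hoxa7 in ruxolitinib against vehicle (0.00132), Hoxb2 in ruxolitinib against vehicle (0.0134), Hoxb4 in the departure from the sum of both drugs (-0.0166). Low counts limit Hoxb2 and Hoxb3.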
